A study of Mus musculus with 6 samples.

Results

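The genes described here are 44 cyclins, mitotic kinases, spindle and kinetochore genes, chosen by symbol, with the genes of replication licensing left out. Every non-control probe named for one of them was taken, which gave 60 probes out of 39429 on the array, and the 44 genes were all among the 25772 genes and unnamed transcripts measured. The RNA came from MIN6B1 cells, a mouse insulinoma line used as a model of the insulin-secreting beta cell. One group received an siRNA against circHIPK3, a circular RNA spliced from the Hipk3 gene, and the control group received an siRNA against green fluorescent protein (siGFP). Both groups were transfected with the same lipid reagent and collected after 48 h, and each held 3 replicates, each on its own single-colour Agilent array. All replicates are of 1 line, and the labels name no separate cultures. The p-values therefore rest on the spread among these 6 samples alone, and that spread may be technical.

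Cyclins are the regulatory subunits that switch on the cyclin-dependent kinases, and their levels rise and fall as a cell divides. D-type and E-type cyclins act before and at the start of DNA synthesis. Cyclin A and cyclin B drive the cell into mitosis with Cdk1, after which the anaphase-promoting complex marks cyclin B and securin for destruction so that the sister chromatids can part. The beta cells of an adult islet divide rarely, whereas an insulinoma line such as MIN6B1 divides in culture. In RNA from whole cultures, fewer cells in a given phase and less RNA per cell cannot be told apart.

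Many genes of mitosis share 2 short promoter elements, CCAAT boxes and the cell cycle homology region (CHR), and genes of DNA synthesis often carry sites for E2F factors. RefSeq windows of assembly GRCm38.p6, from 250 bases before to 50 after a gene's start, matched 35 of the 44 genes in 39 windows. Both strands were searched for TTTGAA or TTCGAA (CHR), for CCAAT, and for TTTCCCGC, TTTCGCGC, TTTGCCGC or TTTGGCGC (E2F), and no letters of one element overlapped those of another in the windows printed here. A CHR match was found in 66.7% of these windows against 19.2% of all 32851 windows, CCAAT in 76.9% against 37.4%, both together in 61.5% against 7.52%, and an E2F match in 10.3% against 2.26%. These are matches of letters, and their function was not tested. The stretches below are the 250 bases before the start, with every match in capitals. They are shown because Ccnb1 is the gene of the 44 that passed the test, Cdk1 and Ccnb2 are its kinase partner and its closest relative, and Cdk2 had the next smallest p.
Ccnb1: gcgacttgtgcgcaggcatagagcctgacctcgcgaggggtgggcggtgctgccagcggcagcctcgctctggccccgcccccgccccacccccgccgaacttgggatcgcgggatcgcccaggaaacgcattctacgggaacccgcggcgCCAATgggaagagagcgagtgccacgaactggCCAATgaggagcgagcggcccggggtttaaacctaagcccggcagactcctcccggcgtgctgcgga
Ccnb2: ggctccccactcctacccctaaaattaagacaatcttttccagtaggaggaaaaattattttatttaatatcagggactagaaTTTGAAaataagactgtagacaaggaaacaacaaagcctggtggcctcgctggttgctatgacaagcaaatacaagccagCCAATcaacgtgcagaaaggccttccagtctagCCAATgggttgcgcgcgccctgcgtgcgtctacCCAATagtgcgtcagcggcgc
Cdk1: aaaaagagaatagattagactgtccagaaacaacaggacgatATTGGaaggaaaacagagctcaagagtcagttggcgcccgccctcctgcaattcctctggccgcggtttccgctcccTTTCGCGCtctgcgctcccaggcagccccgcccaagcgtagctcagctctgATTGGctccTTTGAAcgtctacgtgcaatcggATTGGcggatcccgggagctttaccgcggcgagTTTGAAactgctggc
Cdk2: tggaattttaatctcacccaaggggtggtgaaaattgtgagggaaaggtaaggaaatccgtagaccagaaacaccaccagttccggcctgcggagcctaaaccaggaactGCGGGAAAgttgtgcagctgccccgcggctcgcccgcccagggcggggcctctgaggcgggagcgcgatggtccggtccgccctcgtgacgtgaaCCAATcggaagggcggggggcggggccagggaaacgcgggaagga
All 4 lie on the minus strand, Ccnb1 at chr13:100786487-100786736, Ccnb2 at chr9:70421555-70421804, Cdk1 at chr10:69352913-69353162 and Cdk2 at chr10:128705052-128705301. The Ccnb1 stretch held 2 CCAAT boxes, 99 and 67 bases before the start, and no match to the CHR or E2F letters searched. Other forms of these elements were not searched, so a CHR or E2F site of another form may be present. The Ccnb2 stretch held CCAAT boxes at 87, 54 and 21 bases and a CHR match at 167 bases before the start, and a second CHR match began at base 5 after the start, outside the printed part. That of Cdk1 held 2 CHR matches, at 71 and 15 bases, 3 CCAAT boxes in reverse orientation and an E2F match at 131 bases. Cdk2 held a CCAAT box at 45 bases and an E2F match in reverse orientation at 140 bases. The change described below had a median of -0.05 over the 24 genes with a searched CHR form in a window. It was -0.19 over the 11 without, Ccnb1 among them, as a description with no test.

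Signals are given on the log2 scale, as the processed spot signal minus the 75th percentile of its array, so a value of 0 is the level of that percentile and 1 unit is a doubling. Levels of different probes are not comparable and are not ranked. A change is the circHIPK3 siRNA mean less the siGFP mean on that scale, given with its standard error (SE) from limma. The adjusted p-values come from two-sided limma tests, adjusted by the Benjamini-Hochberg method across those 25772 features. The 75th percentiles ran from 2939 to 3669 units, and with 6 arrays their number limits the precision. The 3 siGFP arrays and circHIPK3 siRNA replicate 1 were scanned as 1 slide and circHIPK3 siRNA replicates 2 and 3 as another, so slide and group are partly confounded. All 14 beta cell markers on the list were well above background on all 6 arrays, among them Ins1, Ins2 and Pdx1. Of the other islet cell markers 5 of 7 were as well, with Gcg at a mean log2 signal of 4.39 for siGFP and 3.80 for circHIPK3 siRNA and Hhex at background on every array. The brighter of the 2 probes of the host gene Hipk3 changed by -0.17 ± 0.14 (SE, adjusted p = 0.50), and its place relative to the circular exon is not known here, so it checks neither the knockdown nor the labels.

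After circHIPK3 siRNA, 1 of the 44 genes passed the test, the mitotic cyclin gene Ccnb1, which fell 1.68-fold. The other 43 did not pass, with changes from -0.52 for the kinase gene Cdk2 to 0.39 for the cyclin gene Ccnd1. The G1 to S genes had the lowest median change of the 7 role groups, -0.33, and the spindle motor, midzone and cytokinesis genes the highest, 0.02, a difference between groups that was not tested. The 1 call among 44 genes is 2.27%, where 1.18% of all genes passed in either direction and 0.64% were called lower, so the number of calls is near the background. Over all genes 165 were called lower and 138 higher, a split that was 218 and 44 under quantile normalization, 241 and 38 with normexp background correction, 151 and 34 in the value table and 402 and 203 with median scaling. By the probe that stood for each gene, all 44 were well above background on all 6 arrays, so none owed its place to the filter on dim probes. Of the 60 probes, 1 was not, a second Nuf2 probe that was well above background on 2 of the 3 siGFP arrays and on all 3 circHIPK3 siRNA arrays.

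**Figure D1:**
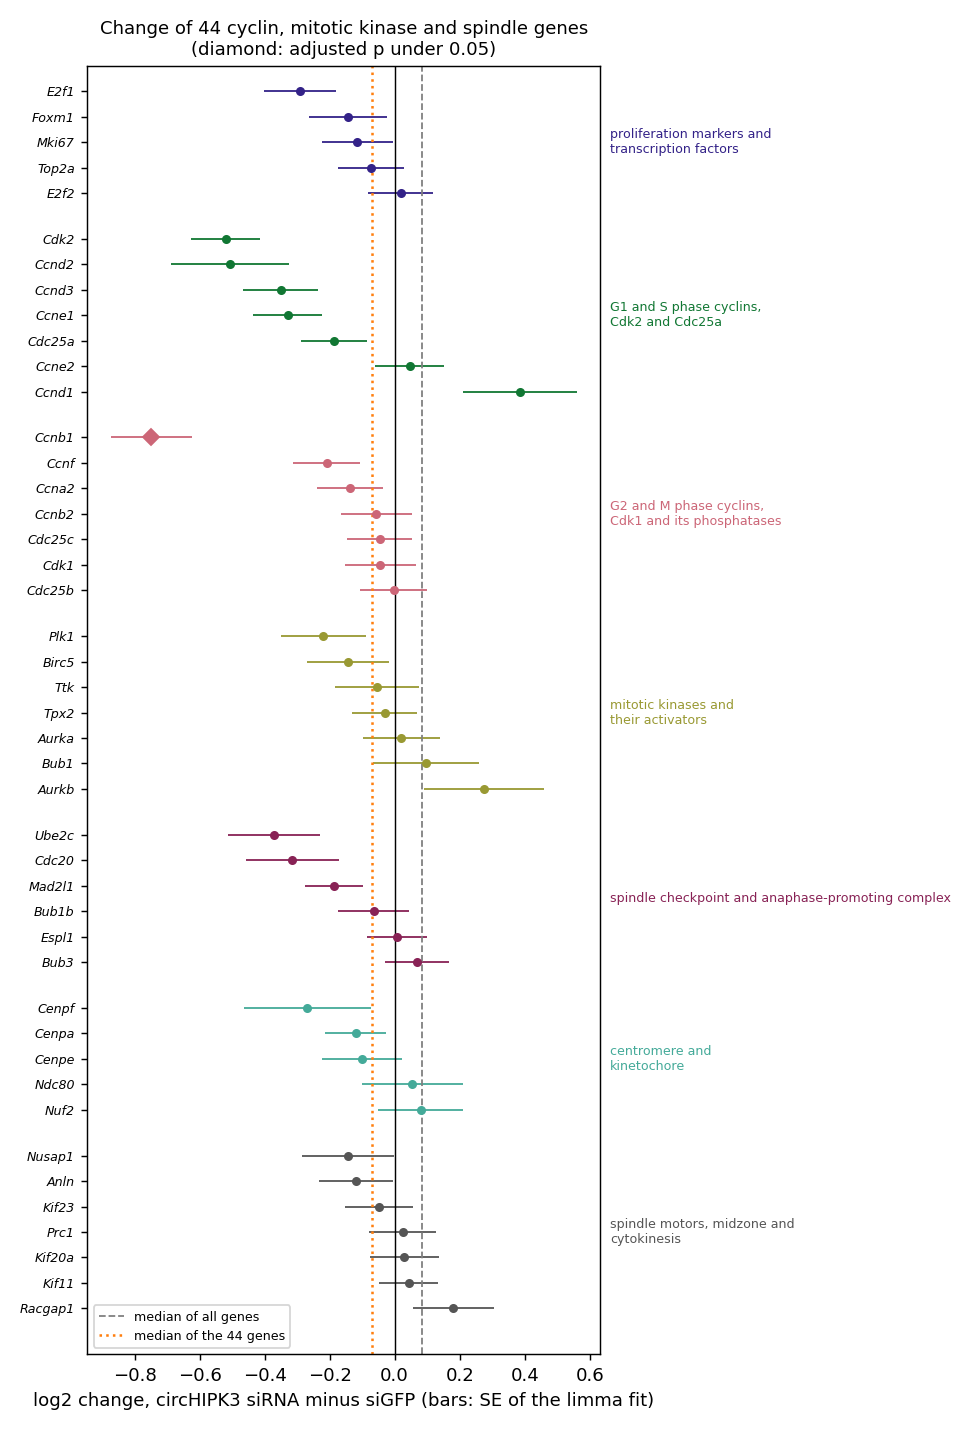
Change of each of the 44 genes on the log2 scale (circHIPK3 siRNA minus siGFP, x axis) by role in the cell cycle, with the SE of the limma fit as bars, a dashed line at the median of all genes (0.08) and a dotted line at the median of the 44 genes (-0.07). Ccnb1, drawn as a diamond, lies farthest to the left at -0.75, Ccnd1 farthest to the right at 0.39, and the spindle motor and cytokinesis genes cluster about 0.

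Ccnb1 encodes cyclin B1, the partner of Cdk1 at the entry into mitosis. Its log2 signals were 1.98, 2.09 and 2.04 in siGFP replicates 1 to 3 and 1.06, 1.46 and 1.35 in circHIPK3 siRNA replicates 1 to 3. Every circHIPK3 siRNA array lay below every siGFP array, and replicate 1, the array on the slide of the controls, was the lowest. The siGFP mean was 2.04 ± 0.06 (SD, n = 3) and that of circHIPK3 siRNA 1.29 ± 0.21 (SD, n = 3). The change was -0.75 ± 0.13 (SE), with a 95% interval from -1.04 to -0.46 and an adjusted p of 0.0489 by limma. The two-sided exact permutation p was 0.10, the smallest that 3 against 3 arrays allow. The other 2 Ccnb1 probes also had groups that did not overlap, with changes of -0.56 ± 0.13 and -0.52 ± 0.13 (SE), and missed the threshold in the fit over all 31371 probes (limma adjusted p = 0.0858 and 0.105). Against the siGFP mean, replicate 1 on the shared slide lay at -0.98 and the replicates of the other slide at -0.63.

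The call of Ccnb1 stood at the edge of the threshold. It was lost under quantile normalization (adjusted p = 0.0531), in the deposited value table (0.0640), without a filter on dim probes (0.0892) and with slide as a random block (0.0570), all by limma. The call was also lost on leaving out any single array other than circHIPK3 siRNA replicate 1, with limma adjusted p between 0.0819 and 0.185. With slide as a fixed block and on the first slide alone, the change was the same -0.98. Both of these settings rest on 1 treated array, circHIPK3 siRNA replicate 1. Over all 17 alternatives the adjusted p ran from 0.00795 to 0.185 and the change from -0.98 to -0.63.

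The kinase and the cyclins that share the work of cyclin B1 had values nearer to control. Cdk1, the mitotic kinase itself, had a change of -0.04 ± 0.11 (SE), Ccnb2, encoding cyclin B2, -0.06 ± 0.11 (SE), and Ccna2, encoding cyclin A2, -0.14 ± 0.10 (SE), with adjusted p-values of 0.842, 0.795 and 0.452. Their 95% intervals were -0.30 to 0.21, -0.31 to 0.20 and -0.38 to 0.10, which leaves out a change as large as that fitted for Ccnb1. Within each array, the log2 signal of Ccnb1 minus that of Ccnb2 was 0.17, 0.12 and 0.09 for siGFP and -0.78, -0.54 and -0.38 for circHIPK3 siRNA. That is a difference of -0.69 between groups that do not overlap. The corresponding difference was -0.70 against Cdk1 and -0.61 against Ccna2. Each of these 3 comparisons, chosen after the values were seen, had groups that do not overlap and a two-sided exact permutation p of 0.10, which is also the value adjusted over the 3. Such a ratio shows unequal change within an array and nothing of either gene alone. The 2 other Cdk1 probes gave 0.13 ± 0.15 and 0.05 ± 0.11 (SE).

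**Figure D2:**
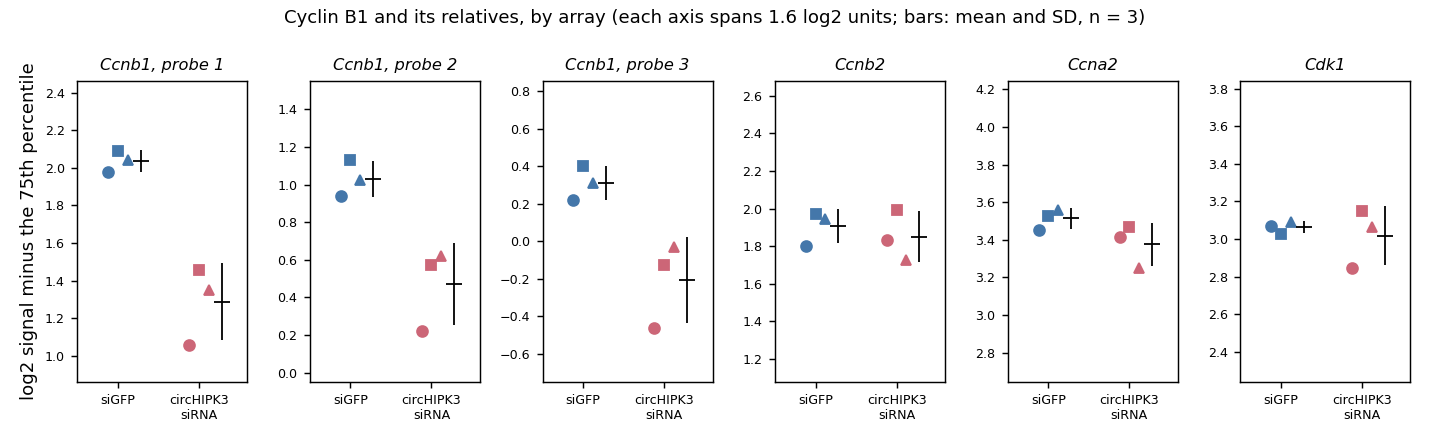
Log2 signal minus the 75th percentile of the array (y axis, each panel spanning 1.6 units) for the 3 Ccnb1 probes, Ccnb2, Ccna2 and Cdk1 in the siGFP (blue) and circHIPK3 siRNA (red) arrays, with circles, squares and triangles for replicates 1, 2 and 3 and the mean and SD (n = 3) beside them. All 3 Ccnb1 panels show separated groups with circHIPK3 siRNA replicate 1 lowest, whereas the groups of Ccnb2, Ccna2 and Cdk1 overlap.

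The remaining genes of the G2 and M phase group were Ccnf and the Cdc25 phosphatases that remove the inhibitory phosphates from Cdk1. Ccnf encodes cyclin F, a ubiquitin ligase subunit, and gave 1.30, 1.26 and 1.46 for siGFP and 1.05, 1.23 and 1.11 for circHIPK3 siRNA, without overlap. Its change of -0.21 ± 0.10 (SE) did not pass (limma adjusted p = 0.287). Cdc25b lay at -0.0026 ± 0.10 (SE) and Cdc25c at -0.05 ± 0.10 (SE), both with overlapping groups.

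The genes of the G1 to S transition numbered 7, and none of them passed the test. The groups did not overlap for 5 of the 7, with circHIPK3 siRNA lower for 4 and higher for 1, where 9.38% of all genes were apart toward lower and 16.6% toward higher values. Cdk2, the kinase that works with cyclins E and A, came nearest. It gave -1.37, -1.13 and -1.13 for siGFP and -1.71, -1.72 and -1.75 for circHIPK3 siRNA, so that its 3 treated arrays lie close together and below every control array. The change was -0.52 ± 0.11 (SE) with a 95% interval from -0.77 to -0.27 (limma adjusted p = 0.0630, and 0.0459 with trend and robust variance, a setting in which 2.44% of all genes were called). Its values against the siGFP mean were alike on both slides, -0.50 and -0.53.

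Cyclin E1, the activator of Cdk2, is encoded by Ccne1. Its signals were 2.58, 2.59 and 2.71 for siGFP and 2.29, 2.42 and 2.18 for circHIPK3 siRNA, a change of -0.33 ± 0.11 (SE, limma adjusted p = 0.153). The other Ccne1 probe lay at -0.36 ± 0.09 (SE, adjusted p = 0.0974 by limma over all probes). The gene of the related cyclin E2, Ccne2, lay at 0.05 ± 0.11 (SE). Cdc25a, the phosphatase that activates Cdk2, gave 1.15, 1.14 and 1.34 for siGFP and 0.99, 1.07 and 1.01 for circHIPK3 siRNA, which do not overlap. That is a change of -0.19 ± 0.10 (SE, limma adjusted p = 0.318).

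The 3 D-type cyclins, which pair with Cdk4 and Cdk6 and answer to growth signals, differed in sign. Ccnd3 gave 0.78, 0.79 and 1.04 for siGFP and 0.42, 0.63 and 0.53 for circHIPK3 siRNA, without overlap, and a change of -0.35 ± 0.12 (SE, limma adjusted p = 0.162). Another Ccnd3 probe lay at -0.15 ± 0.13 (SE). Ccnd2, which encodes the D-type cyclin best known from rodent beta cells, had a change of -0.51 ± 0.18 (SE, limma adjusted p = 0.185) with overlapping groups, and lay at -0.78 on the shared slide and -0.37 on the other. Ccnd1 went the other way, from -6.20, -6.42 and -6.51 to -6.17, -6.18 and -5.63, with circHIPK3 siRNA replicate 3 the highest. The Ccnd1 signal lay below the median signal of all genes. Among genes below that median the median change was 0.21, and 22.8% were apart toward higher values. The Ccnd1 groups do not overlap, but circHIPK3 siRNA replicates 1 and 2 lie only just above siGFP replicate 1. Its change of 0.39 ± 0.17 (SE) did not pass (limma adjusted p = 0.256), and the Ccnd1 change was 0.12 under quantile normalization, 0.068 with normexp background correction and 0.20 without circHIPK3 siRNA replicate 3.

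**Figure D3:**
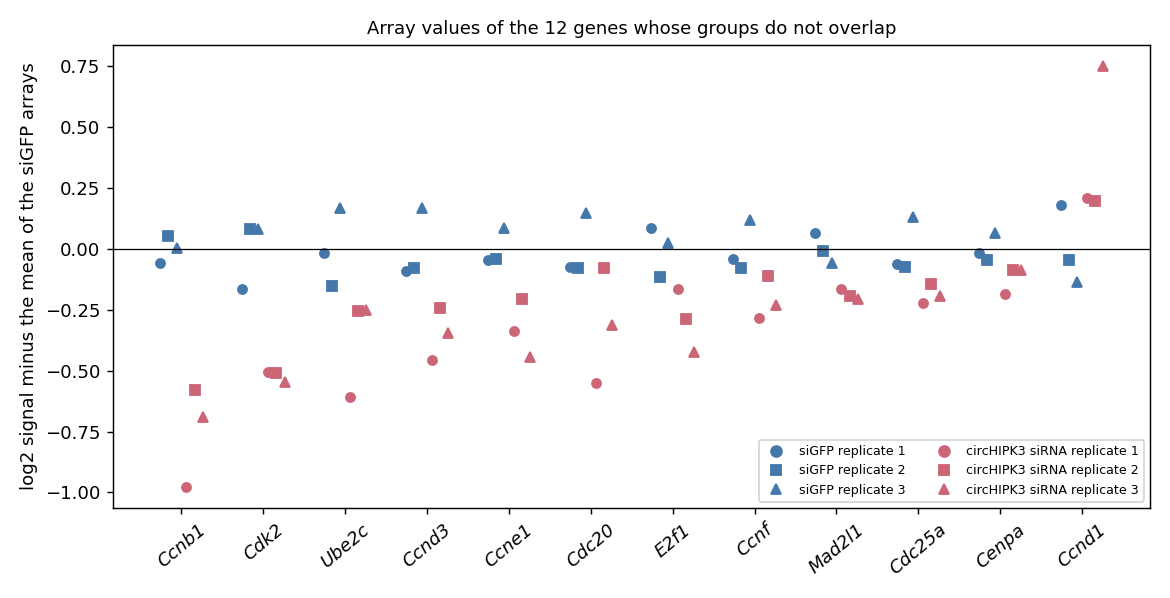
Log2 signal of each array minus the mean of the siGFP arrays (y axis) for the 12 of the 44 genes whose groups do not overlap (x axis), with siGFP in blue, circHIPK3 siRNA in red, and circles, squares and triangles for replicates 1, 2 and 3. The circHIPK3 siRNA arrays lie below the siGFP arrays for 11 genes and above them for Ccnd1, and replicate 1 is the lowest for Ccnb1, Ube2c, Ccnd3 and Cdc20, among others.

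The proliferation markers and the transcription factors that drive the cell cycle gave small values. Mki67, the gene of the Ki-67 antigen by which dividing cells are counted, had a change of -0.11 ± 0.11 (SE) with overlapping groups. The other Mki67 probe lay at -0.24 ± 0.09 (SE, adjusted p = 0.202 by limma over all probes), with circHIPK3 siRNA lower and no overlap. Top2a, the topoisomerase that untangles replicated chromosomes, had a change of -0.07 ± 0.10 (SE), and Foxm1, the forkhead factor that switches on G2 and M phase genes, -0.14 ± 0.12 (SE), both with overlapping groups. The other Foxm1 probe lay at -0.20 ± 0.09 (SE), with circHIPK3 siRNA lower and no overlap. Among the activator E2F factors, E2f1 gave 0.97, 0.77 and 0.91 for siGFP and 0.72, 0.60 and 0.46 for circHIPK3 siRNA. Its groups do not overlap, and its change of -0.29 ± 0.11 (SE) did not pass (limma adjusted p = 0.200). E2f2 lay at 0.02 ± 0.10 (SE).

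By the probe that stood for each gene, none of the 7 mitotic kinases and their activators had groups that did not overlap, and their median change was -0.03. Aurka, the centrosomal Aurora kinase, lay at 0.02 ± 0.12 (SE) and its activator Tpx2 at -0.03 ± 0.10 (SE), with another Tpx2 probe at -0.05 ± 0.12 (SE). Plk1, the polo-like kinase of mitotic entry, had a change of -0.22 ± 0.13 (SE), with circHIPK3 siRNA replicates 1 and 3 below and replicate 2 within the siGFP arrays. Ttk and Bub1, kinases of the spindle checkpoint, gave -0.05 ± 0.13 and 0.10 ± 0.16 (SE). Of the chromosomal passenger complex, the survivin gene Birc5 had a change of -0.14 ± 0.13 (SE) and the Aurora B gene Aurkb 0.27 ± 0.19 (SE). The 2 other Birc5 probes lay at -0.20 ± 0.09, with circHIPK3 siRNA lower and no overlap, and at -0.0028 ± 0.09 (SE), with overlapping groups. Aurkb differed between slides, at -0.07 on the shared slide and 0.45 on the other. The part of the slide in this difference was not tested.

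Among the 6 genes of the spindle checkpoint and the anaphase-promoting complex, the median change was -0.13 and 3 had groups that did not overlap, all lower, against 9.38% of all genes and 13.7% of those at or above the median signal. Ube2c, the ubiquitin-conjugating enzyme of the complex, gave 2.62, 2.49 and 2.81 for siGFP and 2.03, 2.39 and 2.39 for circHIPK3 siRNA. Its change was -0.37 ± 0.14 (SE, limma adjusted p = 0.198), and its other probe lay at -0.49 ± 0.14 (SE, adjusted p = 0.133 by limma over all probes). Cdc20, the activator of the complex at anaphase, gave 3.56, 3.55 and 3.78 for siGFP and 3.08, 3.55 and 3.31 for circHIPK3 siRNA, a change of -0.31 ± 0.14 (SE, limma adjusted p = 0.257). The Cdc20 groups were only just apart, with circHIPK3 siRNA replicate 2 at 3.549 and siGFP replicate 2 at 3.552. In Ube2c and Cdc20 replicate 1 was the lowest array, and the values against the siGFP mean were -0.61 and -0.55 on the shared slide and -0.25 and -0.20 on the other.

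Mad2l1, encoding the checkpoint protein that holds Cdc20 in check, gave 3.22, 3.14 and 3.09 for siGFP and 2.99, 2.96 and 2.94 for circHIPK3 siRNA. That is a change of -0.19 ± 0.09 (SE, limma adjusted p = 0.281). The other 2 Mad2l1 probes gave 0.01 ± 0.09 and 0.07 ± 0.10 (SE), so its probes differ in sign. The checkpoint genes Bub1b and Bub3 lay at -0.06 ± 0.11 and 0.07 ± 0.10 (SE), and Espl1, encoding the protease separase that opens the cohesin ring, at 0.0079 ± 0.09 (SE).

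The centromere and kinetochore genes had a median change of -0.10, and none of the 5 passed. Cenpa, the histone variant that marks the centromere, had a change of -0.12 ± 0.09 (SE) with groups that did not overlap. Cenpe, a kinetochore motor, had a change of -0.10 ± 0.12 (SE), and Cenpf, a large kinetochore protein, -0.27 ± 0.20 (SE). Ndc80 and Nuf2, subunits of the complex that binds microtubules, gave 0.05 ± 0.16 and 0.08 ± 0.13 (SE), and the second Nuf2 probe 0.20 ± 0.15 (SE).

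The spindle motors, the midzone and the cytokinesis genes had a median of 0.02, with changes from -0.14 to 0.18 and overlapping groups for all 7. Kif11, the motor that drives the spindle poles apart, had a change of 0.04 ± 0.09 (SE) with a 95% interval from -0.17 to 0.25. The midzone motors Kif20a and Kif23 lay at 0.03 ± 0.11 and -0.05 ± 0.10 (SE) and the microtubule bundler Prc1 at 0.02 ± 0.10 (SE). Nusap1, a spindle-associated protein, had a change of -0.14 ± 0.14 (SE), and the cytokinesis genes Anln and Racgap1 had changes of -0.12 ± 0.11 and 0.18 ± 0.12 (SE), with another Racgap1 probe at 0.23 ± 0.14 (SE). For all 7 the 95% interval of the change lay within 1.5-fold in either direction.

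Across the 44 genes the median change was -0.07, against 0.08 for all genes, and 30 of the 44 had a change below 0, where 35.9% of all genes did. An unadjusted p under 0.05 toward lower values was reached by 7 of the 44 (15.9%), against 6.51% of all genes, and toward higher values by none, against 14.6%. The circHIPK3 siRNA arrays all lay below the siGFP arrays for 11 genes (25% of the 44, against 9.38% of all genes), and all above for 1 (against 16.6%). In this scaling dim genes had higher changes, and 42 of the 44 genes were at or above the median signal. Among the 12886 genes at or above that signal the median change was 0.0048 and the groups did not overlap for 13.7% toward lower and 10.4% toward higher values. Of those brighter genes 48.7% had a change below 0. An unadjusted p under 0.05 by limma was reached by 8.96% of them toward lower values and by 692 of them toward higher values. The part of signal level in the shift of the 44 genes was not tested. The 95% interval lay within 1.5-fold of no change for 35 of the 44 genes, 79.5%, against 61.4% of all genes and 81.5% of those at or above the median signal. Of the 12 genes with several probes, 10 had all their probes on the same side of 0, and none of the 16 other probes passed in the fit over all probes, where 1.34% of probes did.

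The shift was not even over the arrays. After each gene was centred on its siGFP mean, the medians of the 44 genes were -0.06, 0.04 and 0.03 for siGFP and -0.10, -0.01 and -0.11 for circHIPK3 siRNA replicates 1 to 3. Replicate 2 thus lay within the siGFP range. In circHIPK3 siRNA replicates 1, 2 and 3, 22, 16 and 22 of the 44 genes lay below every siGFP array, and 4, 12 and 7 lay above every siGFP array. The medians of all genes on the same arrays were 0.04, -0.05 and -0.0024 in siGFP replicates 1 to 3, and in circHIPK3 siRNA replicates 1 to 3 they were 0.04, 0.07 and 0.12. By array, the median of the 44 genes relative to that of all genes was -0.10, 0.09 and 0.03 in siGFP replicates 1 to 3. In circHIPK3 siRNA replicates 1 to 3 it was -0.14, -0.08 and -0.23, so replicate 2 again lay within the siGFP range. The median change of the 44 genes relative to all genes was -0.15, and it was -0.09 under quantile normalization and in the value table.

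The regulators around these genes were read from 6 lists of partners with 147 symbols, of which 144 were measured (Cdk6, Ccnb3 and Kif14 were not). In all 2 of the 144 were called lower and none higher. That is 1.39%, against 1.18% of all genes called in either direction and 0.64% called lower, and so near the background. Both called genes were among the 16 CDK inhibitors and other CDK partners. Cdkn1a, encoding the inhibitor p21, gave 0.19, 0.42 and 0.45 for siGFP and -0.38, -0.47 and -0.51 for circHIPK3 siRNA. It fell by 0.81 ± 0.11 (SE), or 1.76-fold, with an adjusted p of 0.0325 by limma, and the other Cdkn1a probe lay at -1.01 ± 0.29 (SE, adjusted p = 0.122 by limma over all probes). Cks1b, encoding a small subunit that binds cyclin-dependent kinases, gave 2.64, 2.62 and 2.69 for siGFP and 1.84, 2.16 and 1.82 for circHIPK3 siRNA. It fell by 0.72 ± 0.12 (SE), or 1.64-fold (limma adjusted p = 0.0489), and its second probe by 0.96 ± 0.13 (SE, limma adjusted p = 0.0336 over all probes). The inhibitor gene Cdkn1b lay at -0.11 ± 0.11 and the G1 kinase gene Cdk4 at 0.03 ± 0.09 (SE), with other Cdk4 probes at -0.04 ± 0.13 and -0.04 ± 0.10 (SE). Both calls were lost without a filter on dim probes (limma adjusted p = 0.0751 for Cdkn1a and 0.0888 for Cks1b). Both were also lost on leaving out any single array except circHIPK3 siRNA replicate 1 (limma adjusted p up to 0.161 and 0.188). That of Cks1b was also lost in the value table (limma adjusted p = 0.0561) and with slide as a random block (0.0594). With slide as a fixed block and on the first slide alone, which rest on 1 treated array, the changes were -0.74 for Cdkn1a and -0.82 for Cks1b.

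In the other 5 lists no gene passed. Among 18 genes of the Rb, E2F and DREAM complex, the repressor E2f6 lay just outside the threshold at -0.56 ± 0.10 (SE, limma adjusted p = 0.0502). Rb1 lay at 0.08 ± 0.13 and its relative Rbl1 at 0.29 ± 0.11 (SE), with a second Rbl1 probe at -0.02 ± 0.14 (SE). E2f6 passed under 5 of 17 alternatives, quantile normalization among them. In the 18 genes of the anaphase-promoting complex and its regulators, the scaffold subunit Anapc1 had a change of -0.44 ± 0.10 (SE, limma adjusted p = 0.0725) and the securin gene Pttg1 0.34 ± 0.13 (SE), with a second Pttg1 probe at 0.61 ± 0.19 (SE). Of 35 kinetochore and checkpoint partners, the checkpoint ATPase gene Trip13 had a change of -0.50 ± 0.13 and the centromere gene Cenpm -0.34 ± 0.10 (SE). Of 39 spindle, centrosome and cytokinesis partners, the centrosome gene Cep192 had a change of -0.48 ± 0.10 (SE, limma adjusted p = 0.0675) and the citron kinase gene Cit 0.31 ± 0.10 (SE). The lowest p among 18 cohesin and condensin genes were those of Rad21 and Smc2, at -0.30 ± 0.12 and -0.28 ± 0.12 (SE). The median changes of the 6 lists ran from -0.12 for the CDK partners to -0.03 for the anaphase-promoting complex, and that of all 144 genes was -0.05.

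**Figure D4:**
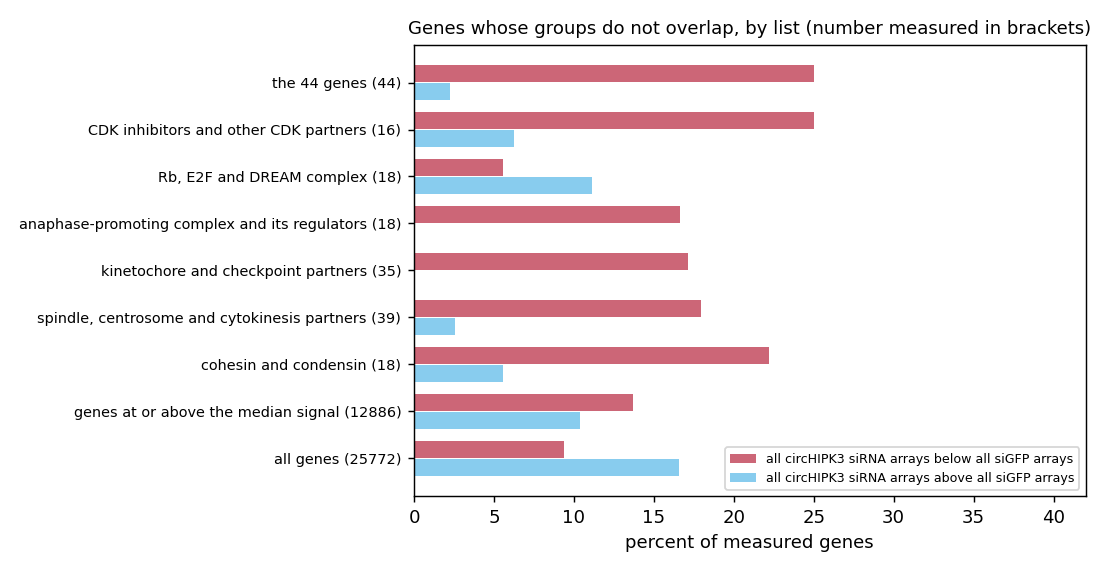
Share of measured genes (x axis, percent) for which all circHIPK3 siRNA arrays lay below (red) or above (blue) all siGFP arrays, for the 44 genes, the 6 partner lists, the brighter genes (median signal or more) and all genes, with the number measured in brackets. The red bar is 25% for the 44 genes and 9.38% for all genes, and the blue bars are 2.27% and 16.6%.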

How the data were processed

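Total RNA of MIN6B1 cells was labelled with Cy3, per the labels' protocols, for Agilent mouse arrays. Spot intensity on a linear scale was read from the deposited scanner files, which per the file headers carry a processed signal, raw medians and flags. The submitters' processing notes name Agilent Feature Extraction 11.0.1.1. The deposited value table holds log2 values of 31868 probes, with a normalization not given in the sources used here. The columns run in the same direction as the scanner values and are not centred by gene (r of at least 0.9999 with the log2 processed signal of the same array). Its column medians were 9.80, and it served as an alternative.

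Log2 processed signals were reduced by the 75th percentile of each array over 43020 non-control spots. Non-uniform and population-outlier spots were dropped, and the spots of each probe averaged. A probe was kept when all 3 arrays of either group had it well above background, and no probe was saturated. Accessions were matched to RefSeq symbols (GRCm38.p6) for 27234 of 39429 probes. The brightest probe stood for a gene, which left 25772 genes and unnamed transcripts. Groups were compared with limma 3.58.1 in R 4.3.3, with group as the only term and a threshold of 0.05, after a test of the procedure on simulated data. Slides were inferred from the scan that the file headers of several arrays share. Figures used matplotlib 3.10.9.

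The 44 genes, their roles and the partner lists were chosen with earlier results of these data known. Given array by array are called genes and the 10 others with the smallest p among those whose groups do not overlap. From each partner list the text names called genes or the 2 smallest p, and always Cdkn1a, Cdkn1b, Cdk4 and Rb1. Promoter windows come from RefSeq. Probe and protein sequences were not used here. Alternatives changed the scaling, background correction, source of values, probe filter, probe choice, variance model, blocks and arrays. The mean foreground that the plan named for normexp is not a column of the files, so the median foreground was used with an offset of 50. The marker lists of other cell types gave 5 of 7 fibroblast, 2 of 4 endothelial, 3 of 4 macrophage and 5 of 6 acinar and duct genes above background on all 6 arrays, and none of them passed the test.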

Additional observations from a re-analysis of the deposited data

How the results depend on the processing

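Over all genes, the count of calls was 303, and it was 605 with median scaling, 185 in the value table, 630 with trend and robust variance and 125 with slide as a random block. It was 0 by limma without a filter on dim probes, with the replicate block, with slide as a fixed block and on the first slide alone, where 5628, 5133, 2675 and 2871 genes had an unadjusted p under 0.05. Without single arrays it ran from 0 to 1736, with 1736 without circHIPK3 siRNA replicate 1, which puts the groups on separate slides, and 0 or 1 without any other array (3344 to 5068 at an unadjusted p under 0.05). Of the 44 genes, 1 was called, and 0 under quantile normalization, in the deposited values, without a filter, with the replicate block and in the 3 slide settings (7, 7, 7, 7 and 6, 8 and 6 at an unadjusted p under 0.05, by limma), against 2 with trend and robust variance, Ccnb1 and Cdk2, and 0 to 1 without single arrays, the 1 being without circHIPK3 siRNA replicate 1. The 44-gene median of -0.07 was -0.17 with median scaling, which shifted the median of all genes by -0.10, and ran from -0.12 to -0.04 without single arrays. Relative to all genes it stayed below 0 in every alternative run, but all of these draw on the same 6 arrays. None of them took genes of like signal as the reference. Labels give both groups the replicate numbers 1 to 3, but deviations of same-numbered arrays correlated at -0.02, 0.27 and -0.13 and siGFP replicate 1 correlated best with circHIPK3 siRNA replicate 3 (0.29), so the numbers were not taken as pairs. With the replicate block the calls of Ccnb1, Cdkn1a and Cks1b were lost, at limma adjusted p-values of 0.0883, 0.0889 and 0.0960.

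Values of 59 named genes changed sign in 54 of 1003 alternative values, none of them called. Under quantile normalization these were Cdc25b at 0.032, Tpx2 at 0.0074 and Espl1 at -0.010, and in the deposited values they were at 0.036, 0.0094 and -0.0049. With normexp they were Cdc25b at 0.025 and Espl1 at -0.031. With median scaling they were E2f2 at -0.084, Ccne2 at -0.056, Aurka at -0.083, Bub1 at -0.0068, Bub3 at -0.034, Espl1 at -0.095, Ndc80 at -0.049, Nuf2 at -0.023, Kif11 at -0.060, Kif20a at -0.073, Prc1 at -0.078, Cdk4 at -0.071 and Rb1 at -0.022. With slide as a fixed block and on the first slide alone they were Aurka at -0.15, Aurkb at -0.074, Kif20a at -0.086, Prc1 at -0.033 and Cdkn1b at 0.042. These settings share their changes, as both rest on circHIPK3 siRNA replicate 1 as the only treated array. With slide as a random block the gene was Aurka, at -0.0019. Without single arrays the ranges crossed 0 for E2f2 (-0.030 to 0.053), Ccne2 (-0.013 to 0.11), Ccnb2 (-0.13 to 0.0072), Cdk1 (-0.11 to 0.044), Cdc25b (-0.078 to 0.045), Cdc25c (-0.11 to 0.00028), Aurka (-0.063 to 0.11), Ttk (-0.15 to 0.054), Bub1 (-0.024 to 0.25), Tpx2 (-0.072 to 0.020), Espl1 (-0.015 to 0.050), Ndc80 (-0.081 to 0.21), Nuf2 (-0.018 to 0.20), Kif20a (-0.049 to 0.087) and Prc1 (-0.048 to 0.069). Apart from the shift that median scaling makes by construction, the cause of these changes was not tested.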
